A study of Mus musculus with 18 samples.

Results

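The matrix metalloproteinases (Mmp), the secreted proteases with thrombospondin motifs (Adamts) and the tissue inhibitors of metalloproteinases (Timp) were described by RNA sequencing in C2C12, a line of mouse myoblasts that form multinucleate myotubes once serum is lowered. The families were chosen with earlier results of these data known. Within them genes were taken by symbol: every protein-coding gene of the count table named Mmp, Adamts or Timp followed by a number. This gave 45 of 55450 gene IDs, with 22 Mmp, 19 Adamts and 4 Timp genes. The gene Mmp1a was left out because it is annotated as a polymorphic pseudogene.

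Polyadenylated RNA was sequenced from myoblasts in growth medium and from myotubes on day 3 after the change to medium with horse serum, in 3 lines, with libraries A, B and C for each line at each stage. The control was an EGFP-sorted population that had received the pX458 vector, which carries Cas9, without a guide. The overexpressor and the knockout, named after the effect the labels give them on the Dlk1-Dio3 cluster of imprinted noncoding RNAs, were each a clone, expanded from 1 cell edited with a guide pair aimed at the Meg3 promoter. The study asked how these noncoding RNAs bear on muscle cell state and differentiation. Each genotype was 1 line, so genotype and clone cannot be told apart, and nothing in the labels says that the libraries came from separately derived lines: p-values measure the spread between these cultures, which may be technical.

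Libraries held 41544358 to 79140702 counts. Meg3 had 0 counts in all 6 control libraries and in all 6 knockout libraries, against 5222 to 7763 counts in the overexpressor libraries, so it does not separate control from knockout, and every direction given for the knockout rests on its label. The summed level of 10 muscle markers was 1394 to 1641 CPM (counts scaled to the size of the library) in control myoblasts, 2751 to 3544 in overexpressor myoblasts and 13940 to 17340 in knockout myoblasts. It was 19110 to 19830, 33170 to 37220 and 43590 to 53380 CPM in control, overexpressor and knockout myotubes. The libraries labelled knockout myoblast thus lay nearer to control myotubes than to control myoblasts in these markers, among them Myh3, an embryonic myosin heavy chain. In bulk RNA, fewer cells of a type and less RNA per cell cannot be told apart.

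Matrix metalloproteinases are zinc-dependent endopeptidases, secreted or held at the cell surface, that cut collagens, gelatins, fibronectin and other matrix proteins, and are made as inactive proenzymes. Timp proteins bind their active sites, and Timp2 also holds pro-Mmp2 at the cell surface, where Mmp14 can activate it. Adamts proteases act on narrower sets of substrates: some trim the amino-terminal propeptides of fibrillar procollagens, others cut versican and aggrecan, and others associate with microfibrils. In muscle, these enzymes remodel the matrix around migrating and fusing myoblasts.

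Promoter sequences were matched in RefSeq (GRCm38.p6) for 31 of the 45 genes, and the 250 bases before each start were searched on both strands for 3 motifs chosen after expression values had been seen. Mmp2 was among the 14 genes without a match. The AP-1 motif TGANTCA, the DNA element bound by Fos and Jun proteins, was present in 7 of the 31 genes (22.6%) and in 6.75% of 32851 RefSeq promoters. All 7 genes belong to a run of 9 Mmp genes on chromosome 9 that had almost no counts here. The E-box CAGCTG was present in 7 of 31 (22.6%) against 13.0% of all promoters, and the GC box GGGCGG in 16 of 31 (51.6%) against 32.7%. The median share of G and C letters in the windows was 58.2% for these genes and 52.4% over all promoters. The part of this difference in the motif shares was not tested. For each motif the units differ: a gene was counted if any of its promoter entries held the motif. The share of all promoters was counted over single entries. Mmp7 and Mmp12 each had an entry with the AP-1 motif and another without it. A match describes letters in the window and is neither a binding site nor a cause. The 100 bases before the start are shown first for 3 genes of the chromosome 9 run, as examples of the AP-1 motif in genes with at most 20 counts in any library: Mmp3 (chr9:7445722-7445821, plus strand), Mmp10 (chr9:7502242-7502341, plus strand) and Mmp13 (chr9:7272414-7272513, plus strand). They are then shown for genes that were lower in the myotubes of both clones, Mmp14 (chr14:54431498-54431597, plus strand) and Adamts2 (chr11:50601985-50602084, plus strand). Last come Mmp15 (chr8:95352196-95352295, plus strand) and Adamts14 (chr10:61273420-61273519, minus strand), which were higher in both clones at both stages. Sequences run 5′ to 3′ on the strand of the gene, capitals mark the motifs, and no motif overlapped one of another kind in these windows.
Mmp3: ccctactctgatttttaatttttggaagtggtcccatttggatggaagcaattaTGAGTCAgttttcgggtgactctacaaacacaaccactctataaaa
Mmp10: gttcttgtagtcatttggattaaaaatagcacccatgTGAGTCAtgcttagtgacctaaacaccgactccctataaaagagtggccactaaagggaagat
Mmp13: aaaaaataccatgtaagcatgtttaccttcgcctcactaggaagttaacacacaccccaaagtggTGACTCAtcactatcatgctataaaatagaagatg
Mmp14: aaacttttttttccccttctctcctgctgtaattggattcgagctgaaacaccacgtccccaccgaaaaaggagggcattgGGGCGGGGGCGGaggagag
Adamts2: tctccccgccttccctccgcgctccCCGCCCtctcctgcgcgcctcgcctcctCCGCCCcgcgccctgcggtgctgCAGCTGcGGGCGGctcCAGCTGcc
Mmp15: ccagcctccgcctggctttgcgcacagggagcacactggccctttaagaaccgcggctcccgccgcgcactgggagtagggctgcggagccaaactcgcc
Adamts14: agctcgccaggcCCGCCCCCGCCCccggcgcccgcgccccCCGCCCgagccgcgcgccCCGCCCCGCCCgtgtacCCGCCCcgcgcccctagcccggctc
The AP-1 motif began 46, 63 and 35 bases before the start of Mmp3, Mmp10 and Mmp13. The window of Mmp14 held adjoining GC boxes, that of Adamts2 E-boxes beside GC boxes, that of Adamts14 a row of GC boxes, and that of Mmp15 none of the 3 motifs, its GC box lying farther from the start.

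Of the 45 genes, 28 passed the filter on low counts (10 Mmp, 14 Adamts and 4 Timp), and 24 of these reached a mean of 1 CPM in at least 1 group and are described by their values. A gene that passed only through the group in which it is high had to differ between groups, so counts over the 28 describe them and support nothing. Differences were tested with edgeR's quasi-likelihood test on the counts of all 18 libraries, Benjamini-Hochberg adjustment covered all 17912 tested genes, and a gene was called at an adjusted p under 0.05. Log2 fold changes are given with their standard error, and CPM values were scaled with TMM factors.

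The pattern that recurred was a high level in control myotubes and a low level in the myotubes of both clones. Of the 24 genes, 10 had their highest mean in control myotubes: Mmp2, Mmp11, Mmp14, Mmp19, Mmp23, Mmp28, Adamts2, Adamts5, Adamts16 and Timp3. In overexpressor myotubes 23 of the 28 genes differed from control, 8 higher and 15 lower, where 57.1% of all genes tested were called (26.2% higher and 30.9% lower). In knockout myotubes 24 differed, 6 higher and 18 lower, where 68% of all genes were called (31% higher and 37% lower). The median log2 fold change over the 28 was -0.52 and -1.63, against -0.04 and -0.07 over all genes. The same control libraries enter both comparisons. In each of them 13 genes were lower: Mmp2, Mmp11, Mmp14, Mmp16, Mmp19, Mmp23, Mmp28, Timp3, Adamts2, Adamts3, Adamts5, Adamts10 and Adamts16. The shares of all tested genes lower in both clones, or highest in control myotubes, were not computed. The counts of 13 and 10 therefore describe these genes alone and do not set them apart from other genes. Mmp15, Adamts7 and Adamts14 were higher in both clones, and Adamts15, Adamts8 and Timp4 were called higher in the overexpressor and lower in the knockout. Outside overexpressor myotubes, Adamts8 and Timp4 had at most 4 and 10 counts in any library. They passed the filter through the group in which they are high, so their higher calls support nothing. Their lower calls in the knockout rest on counts near the floor of 3.

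Overexpressor myoblasts differed from control in 22 of the 28 genes, 8 higher and 14 lower, where 40.4% of all genes were called (20.7% higher and 19.7% lower). Knockout myoblasts differed in 20, 6 higher and 14 lower, where 53% were called (26.4% higher and 26.6% lower). Against the same controls, 9 genes were lower in both clones (Mmp2, Mmp9, Mmp14, Mmp16, Mmp19, Mmp23, Adamts3, Adamts10 and Adamts16). The share of all tested genes lower in both clones as myoblasts was not computed. Adamts1, Adamts2 and Adamts12 were lower in the overexpressor and higher in the knockout, and Timp2 the reverse. Adamts5 and Adamts17 were called lower in overexpressor myoblasts and lost the call without single libraries (adjusted p = 0.0753 to 0.122 for Adamts5, 0.0618 and 0.0693 for Adamts17). The clones differed from each other in 20 genes as myoblasts, 12 higher in the overexpressor and 8 lower, where 52.6% of all genes were called (25.7% higher and 26.9% lower). As myotubes they differed in 22, 10 higher and 12 lower, where 59.7% were called (30.6% higher and 29.1% lower).

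Differentiation of the control raised 17 of the 28 genes and lowered 6, where 62.8% of all genes were called (33.9% higher and 28.8% lower). In the overexpressor 14 rose and 10 fell, where 62.8% were called (29.8% higher and 33% lower). In the knockout 8 rose and 10 fell, where 65.4% were called (29.8% higher and 35.6% lower). Mmp15, Adamts4, Adamts14 and Adamts16 rose with differentiation in all 3 lines, and Adamts10 and Mmp17 fell in all 3. Mmp14, Mmp28 and Timp3 rose in the control and fell in both clones.

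**Figure D1:**
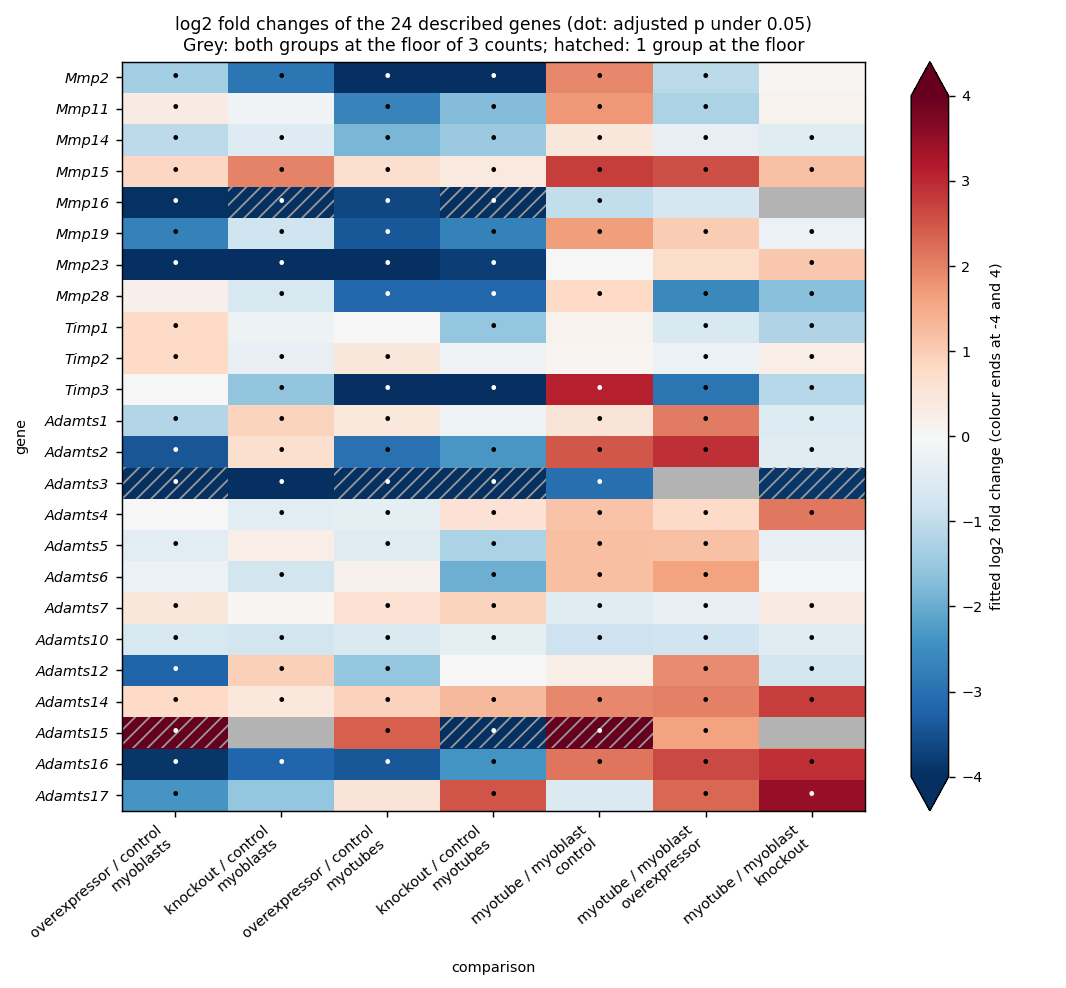
Fitted log2 fold changes (colour) of the 24 described genes (rows) in 4 comparisons of a clone with control and 3 of myotubes with myoblasts (columns); a dot marks an adjusted p under 0.05, grey marks cells with both groups at 3 counts or fewer in every library, and hatching marks cells with 1 such group, whose fitted value is no bound. Blue fills the myotube columns for Mmp2, Mmp11, Mmp14, Mmp16, Mmp19, Mmp23, Mmp28 and Timp3 in both clones, while Mmp15 and Adamts14 are red in every column.

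Among the enzymes, Mmp2 (gelatinase A, chromosome 8, 92827291 to 92853420, plus strand) had the highest CPM of the Mmp genes in control myotubes and a far lower level in the myotubes of both clones. Control myoblasts held 445, 474 and 440.4 CPM and control myotubes 1841, 1692 and 1568. The overexpressor held 187, 157 and 190.2 as myoblasts and 93.9, 86.6 and 73.9 as myotubes. The knockout held 60.6, 62.0 and 60.9 as myoblasts and 61.2, 63.3 and 65.8 as myotubes. All control libraries lay above all libraries of the clones at the same stage, and the control myotubes stood apart from every other group. In myotubes, Mmp2 was 20.1-fold lower in the overexpressor (log2 fold change -4.33 ± 0.10, adjusted p = 3.22e-16) and 26.8-fold lower in the knockout (-4.75 ± 0.10, adjusted p = 8.87e-17). In myoblasts the corresponding log2 fold changes were -1.35 ± 0.09, adjusted p = 5.26e-10 and -2.89 ± 0.09, adjusted p = 2.86e-14. Differentiation raised it in the control (1.91 ± 0.09, adjusted p = 1.43e-12) and lowered it in the overexpressor (-1.07 ± 0.09, adjusted p = 3.93e-09). In the knockout the difference between stages was 0.05 (adjusted p = 0.616), and -0.12 when libraries were scaled by their totals.

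Mmp14 (a membrane-bound collagenase that can activate pro-Mmp2, chromosome 14, 54431612 to 54445364, plus strand) was abundant in every group. It stood at 687, 726 and 702 CPM in control myoblasts and 1013, 960.2 and 934 in control myotubes. Overexpressor libraries held 344, 321 and 349 CPM as myoblasts and 282, 279 and 254 as myotubes. Knockout libraries held 491, 489 and 485 as myoblasts and 346, 357 and 339 as myotubes. No group overlapped another within a stage, and the order control, knockout, overexpressor was the same in myoblasts and myotubes. Against control the log2 fold change was -1.06 ± 0.06, adjusted p = 3.94e-11 and -0.53 ± 0.06, adjusted p = 2.64e-07 in overexpressor and knockout myoblasts. It was -1.83 ± 0.06, adjusted p = 1.78e-14 and -1.48 ± 0.06, adjusted p = 2.15e-13 in the myotubes. Each of these 4 differences was smaller in size than the one of Mmp2 in the same comparison; that ordering itself was not tested.

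Mmp15, another membrane-bound metalloproteinase, went the other way (chromosome 8, 95352268 to 95375080, plus strand). Control libraries held 24.8, 29.1 and 27.3 CPM as myoblasts and 194, 183 and 176 as myotubes. The overexpressor held 51.0, 38.1 and 55.2 as myoblasts and 306, 289 and 264 as myotubes. The knockout held 98.2, 121 and 105 as myoblasts and 219, 229 and 283 as myotubes. Both clones lay above control without overlap at each stage, and all 3 lines rose with differentiation. Knockout myoblasts showed the widest gap, a log2 fold change of 2.00 ± 0.13, adjusted p = 7.32e-10, against 0.83 ± 0.13, adjusted p = 4.18e-05 in overexpressor myoblasts. In myotubes the log2 fold change was 0.64 ± 0.12, adjusted p = 0.000256 for the overexpressor and 0.40 ± 0.12, adjusted p = 0.00798 for the knockout. The latter rested on library C, the highest of the knockout: without it the log2 fold change was 0.28 (adjusted p = 0.0568).

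Mmp11 (stromelysin-3, chromosome 10, 75923222 to 75936496, minus strand) separated the lines as myotubes far more than as myoblasts. Myoblasts held 88.0, 91.1 and 88.8 CPM for control, 118, 100.3 and 119 for the overexpressor and 81.1, 80.2 and 82.3 for the knockout. Myotubes held 325, 294 and 275.4 CPM for control, 48.8, 49.8 and 42.4 for the overexpressor and 88.6, 90.0 and 92.5 for the knockout. Control myotubes were the highest of all groups and overexpressor myotubes the lowest. The overexpressor was higher than control as myoblasts (0.34 ± 0.08, adjusted p = 0.00153) and lower as myotubes (-2.67 ± 0.08, adjusted p = 9.92e-15). In the knockout the difference was -0.14 as myoblasts (adjusted p = 0.141) and -1.72 ± 0.08, adjusted p = 1.5e-12 as myotubes. Chchd10, which overlaps Mmp11 on the other strand, stood at 28.9 ± 6.88 CPM in control myotubes and 0.681 to 4.48 CPM in the means of the other groups, and the use of strand in counting is not given in the sources used here.

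Mmp28 (epilysin, chromosome 11, 83440768 to 83463071, minus strand) and Mmp19 were less abundant. Mmp28 held 22.5, 22.3 and 21.7 CPM in control myoblasts, 25.7, 21.9 and 28.8 in overexpressor and 14.9, 13.4 and 14.0 in knockout myoblasts. The myotubes held 40.9, 38.5 and 35.8 CPM for control, 4.34, 4.85 and 3.72 for the overexpressor and 4.08, 4.54 and 4.54 for the knockout. It rose with differentiation in the control (0.79 ± 0.10, adjusted p = 1.96e-06) and fell in the overexpressor (-2.56 ± 0.11, adjusted p = 5.53e-13) and the knockout (-1.68 ± 0.11, adjusted p = 3.92e-10), so that both clones ended without overlap below control. Their myotubes were close to each other, with a log2 fold change of -0.03 (adjusted p = 0.86) between overexpressor and knockout. Mmp19, a secreted enzyme of the vessel wall and other stroma, stood at 22.4 ± 1.24 CPM (SD, n = 3) in control myoblasts, with 3.43 ± 0.425 for the overexpressor and 12.9 ± 0.755 for the knockout. Its myotube means were 71.7 ± 4.25, 6.84 ± 0.562 and 10.96 ± 0.734 CPM. It was lower than control in both clones at both stages, by 3.39 and 2.71 on the log2 scale in overexpressor and knockout myotubes (adjusted p = 6.24e-15 and 6.6e-14).

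Mmp16 and Mmp23 were expressed in the control line and were at most 0.565 CPM in any library of the clones. Mmp16, a membrane-bound metalloproteinase, held 6.55, 6.52 and 7.06 CPM in control myoblasts and 3.43, 3.48 and 3.37 in control myotubes. The overexpressor held 0.299, 0.561 and 0.439 CPM as myoblasts and 0.386, 0.1001 and 0.347 as myotubes, and no knockout library exceeded 3 counts. Mmp16 was therefore at least 117-fold lower in knockout than in control myoblasts and at least 62.6-fold lower in the myotubes, with 3 counts per library as the floor. Mmp23, which lacks the usual activation switch of the family, held 5.80, 6.25 and 5.52 CPM in control myoblasts and 5.66, 6.59 and 5.59 in control myotubes. Its highest value in any library of the clones was 0.565 CPM, in knockout myotubes. Against control its log2 fold change was -5.34 ± 0.28, adjusted p = 3.46e-11 and -4.84 ± 0.26, adjusted p = 3.52e-11 in overexpressor and knockout myoblasts, and -4.63 and -3.78 in the myotubes. Both genes fell below control in both clones, with no overlap of libraries. Mmp23 was also lower in overexpressor than in knockout myotubes (-0.85 ± 0.30, adjusted p = 0.0197), a call lost without any 1 of 3 of those libraries (adjusted p = 0.0753 to 0.107). For Mmp23 the stages of the control did not differ by the test (0.02 ± 0.19, adjusted p = 0.934).

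**Figure D2:**
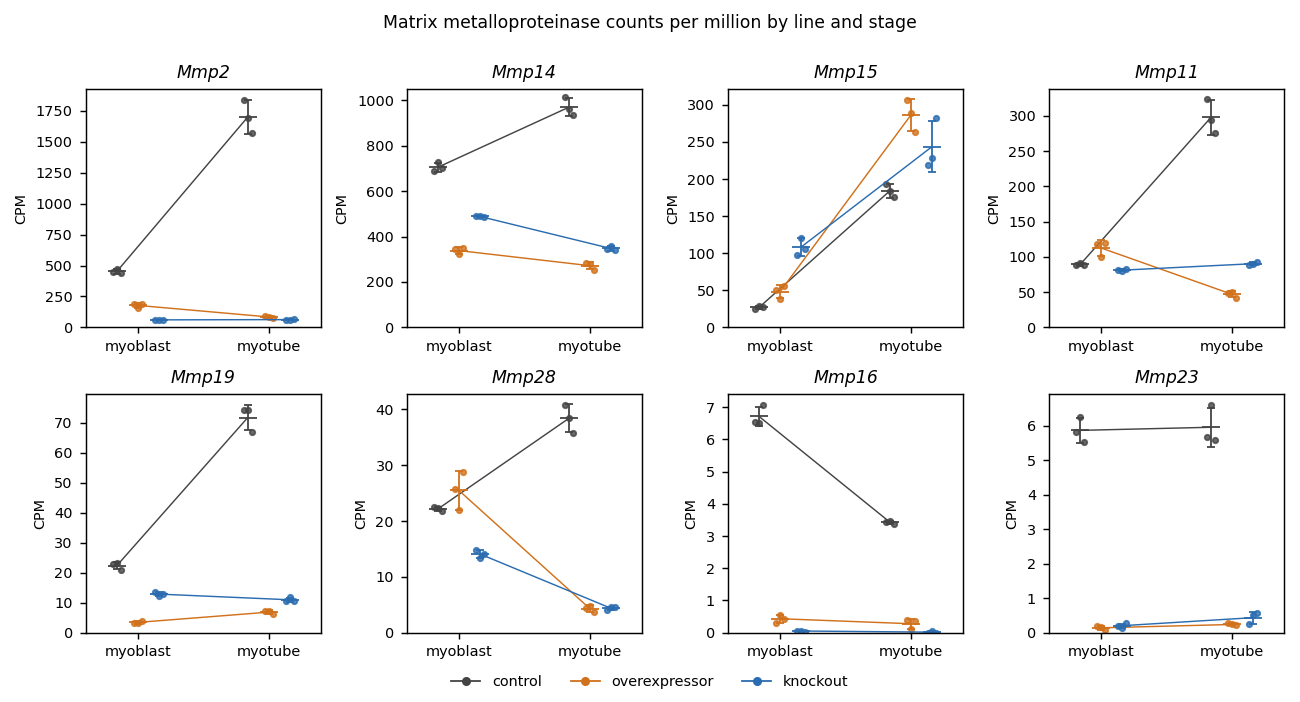
CPM (vertical axis, starting at 0, with a scale of its own in each panel) of the 8 described Mmp genes in myoblasts and day 3 myotubes of the control, overexpressor and knockout lines; points are libraries, bars the mean ± SD of 3 libraries, and lines join the means of a line. Mmp2 in control myotubes lies between 1568 and 1841 CPM, above every other group, while Mmp15 is higher in both clones than in control at each stage.

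Markers of other cell types were read beside these values. Of 7 fibroblast or mesenchymal markers, Thy1 was at or under 3 counts in every library of 5 groups and had a mean of 0.0431 CPM in control myotubes. The summed level of the 7 was 523.2 to 632.6 CPM in control myotubes, 35.2 to 38.5 in overexpressor and 64.7 to 75.6 in knockout myotubes. Col15a1, Dpt and Pi16, matrix and secreted proteins of fibroblasts, had means of 268.9, 89.0 and 39.5 CPM in control myotubes and at most 2.18, 0.429 and 2.44 CPM in the myotubes of the clones. Dcn, decorin, averaged 46.6 CPM in control myotubes, 6.53 in those of the overexpressor and 48.2 in those of the knockout, and made up most of the knockout sum. Pdgfra, a growth factor receptor, averaged 22.9, 10.2 and 18.8 CPM in the same order. In myoblasts the sum was 197.2 to 212.4 CPM in control, 454.9 to 579.1 in the overexpressor, and 58.1 to 63.1 in the knockout. Ly6a alone averaged 502 CPM in overexpressor myoblasts, where 4 of the 6 tested markers were lower than control and 2 higher, with a median log2 fold change of -1.26. Over all genes tested, 40.4% were called in that comparison (20.7% higher and 19.7% lower), with a median of 0.015. The sum was thus high where Mmp2, Timp3, Mmp11 and Adamts2 were high among myotubes, and was highest among myoblasts in the overexpressor, where Mmp2 and Adamts2 were lower than control, Mmp11 was higher and Timp3 had a log2 fold change of -0.03 (adjusted p = 0.881). The part of these markers in the results was not tested. The summed level of 6 leukocyte markers was 0.972 to 2.69 CPM over all libraries, and that of 5 endothelial markers 0.0385 to 0.669 CPM.

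The inhibitors differed from one another. Timp3 (chromosome 10, 86300372 to 86349506, plus strand), which stays bound to the matrix and also inhibits several Adamts enzymes, showed the largest difference between lines among the Timp genes above 1 CPM. Control myoblasts held 186, 201 and 206 CPM and control myotubes 1655, 1646 and 1809. The overexpressor held 193, 223 and 165 as myoblasts and 27.0, 22.2 and 28.3 as myotubes. The knockout held 67.3, 66.9 and 63.0 as myoblasts and 34.9, 31.2 and 23.9 as myotubes. Overexpressor and control myoblasts overlapped, knockout myoblasts lay below both, and the myotubes of both clones lay far below control. In myotubes Timp3 was 66.0-fold lower in the overexpressor (-6.04 ± 0.15, adjusted p = 3.16e-15) and 56.7-fold lower in the knockout (-5.83 ± 0.15, adjusted p = 3.78e-15). It rose with differentiation in the control (3.11 ± 0.13, adjusted p = 1.12e-12) and fell in the overexpressor (-2.91 ± 0.13, adjusted p = 2.97e-12) and in the knockout line (-1.13 ± 0.13, adjusted p = 6.2e-07). Syn3, which overlaps Timp3 on the other strand, stood at 2.73 ± 1.11 CPM in control myotubes and at most 0.252 CPM in the mean of any other group.

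Timp2 (chromosome 11, 118301069 to 118355740, minus strand) was the most abundant inhibitor in CPM in 5 of the 6 groups, the exception being control myotubes, where Timp3 was higher. The control held 1265, 1339 and 1331 CPM as myoblasts and 1488, 1349.5 and 1338 as myotubes. The overexpressor held 2308, 2114 and 2357 as myoblasts and 1969.7, 1963 and 1803 as myotubes. The knockout held 1088, 1018 and 1035 as myoblasts and 1230.2, 1260.4 and 1321 as myotubes. The overexpressor was the highest line without overlap at both stages, by 0.78 on the log2 scale in myoblasts (adjusted p = 1.12e-08) and 0.46 in myotubes (adjusted p = 5.53e-06). The knockout was lower than control as myoblasts (-0.32 ± 0.06, adjusted p = 0.000272), and as myotubes the log2 fold change was -0.13 (adjusted p = 0.0735). Changes with differentiation were small and depended on the scaling. In the control the difference was 0.09 (adjusted p = 0.248), and -0.16 (adjusted p = 0.0252) when scaled by library totals. A fall in the overexpressor (-0.24 ± 0.06, adjusted p = 0.00276) was -0.16 with adjusted p = 0.0834 under DESeq2 size factors, and -0.16 with adjusted p = 0.0651 without library C of the overexpressor myotubes. A rise in the knockout (0.28 ± 0.06, adjusted p = 0.000881) was 0.11 with adjusted p = 0.111 when scaled by library totals.

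Timp1 (chromosome X, 20870166 to 20874735, plus strand), a secreted inhibitor with growth-promoting activity on some cells, was higher in overexpressor myoblasts and lower in knockout myotubes. Myoblasts held 178, 185 and 188 CPM for control, 330.1, 298 and 326 for the overexpressor and 176, 154 and 154 for the knockout. Myotubes held 192, 216 and 199 CPM for control, 210.2, 225 and 184 for the overexpressor and 61.7, 68.9 and 77.8 for the knockout. Knockout myotubes lay below every other library, and overexpressor and control myotubes overlapped. The log2 fold change against control was 0.79 ± 0.09, adjusted p = 6.59e-07 in overexpressor myoblasts and -1.54 ± 0.09, adjusted p = 4.79e-11 in knockout myotubes. In overexpressor myotubes it was 0.03 (adjusted p = 0.788) and in knockout myoblasts -0.19 (adjusted p = 0.0786). Timp4, an inhibitor known for its level in heart, stayed below a mean of 1 CPM, with 0.728, 1.14 and 0.736 CPM in overexpressor myotubes, 0.114, 0.229 and 0.126 in control and at most 0.0209 in knockout myotubes, where no library exceeded 3 counts.

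**Figure D3:**
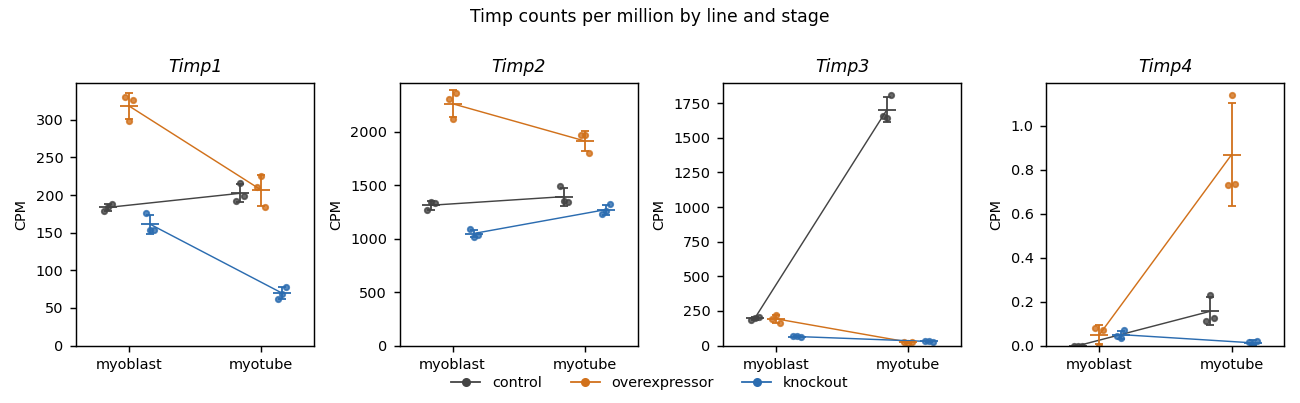
CPM (vertical axis, starting at 0, with a scale of its own in each panel) of the 4 Timp genes in myoblasts and day 3 myotubes of the control, overexpressor and knockout lines; points are libraries, bars the mean ± SD of 3 libraries, and lines join the means of a line. Timp3 in control myotubes lies between 1646 and 1809 CPM and below 35 CPM in the myotubes of both clones, whereas Timp2 is highest in the overexpressor at both stages.

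Levels of different genes were compared per length, as CPM per kilobase of exon (RPKM). Timp2 had the highest RPKM of all 45 genes in 5 groups, from 268.8 ± 9.39 in knockout myoblasts to 580.0 ± 33.0 in overexpressor myoblasts (SD, n = 3). In control myotubes Mmp2 came first with 504.5 ± 40.5 RPKM, ahead of Timp2 with 357.2 ± 21.5 and Timp1 with 227.8 ± 13.6. The Mmp genes summed to 305.6 ± 9.81 RPKM in control myoblasts and 841.8 ± 59.5 in control myotubes. They summed to 166.9 ± 14.3 and 144.1 ± 11.1 RPKM in overexpressor myoblasts and myotubes, and to 157.0 ± 1.70 and 159.4 ± 6.89 in the knockout. Only the control line thus showed a higher sum in its myotubes than in its myoblasts without overlap of libraries.

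The ratio of the summed Mmp to the summed Timp RPKM was 0.539 ± 0.0163 in control myoblasts and 1.06 ± 0.0667 in control myotubes (SD, n = 3). It was 0.173 ± 0.00629 and 0.198 ± 0.00607 in overexpressor myoblasts and myotubes, and 0.343 ± 0.0199 and 0.391 ± 0.00249 in the knockout. At both stages the order was control, knockout, overexpressor, with no overlap of libraries. The ratio of Mmp2 to Timp2 RPKM was 0.399 ± 0.0148 in control myoblasts and 1.41 ± 0.0497 in control myotubes. In the myotubes of the overexpressor and the knockout it was 0.0512 ± 0.00388 and 0.0577 ± 0.000292. These are ratios of RNA levels and say nothing of protein or activity, and no test was made of the sums or ratios.

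**Figure D4:**
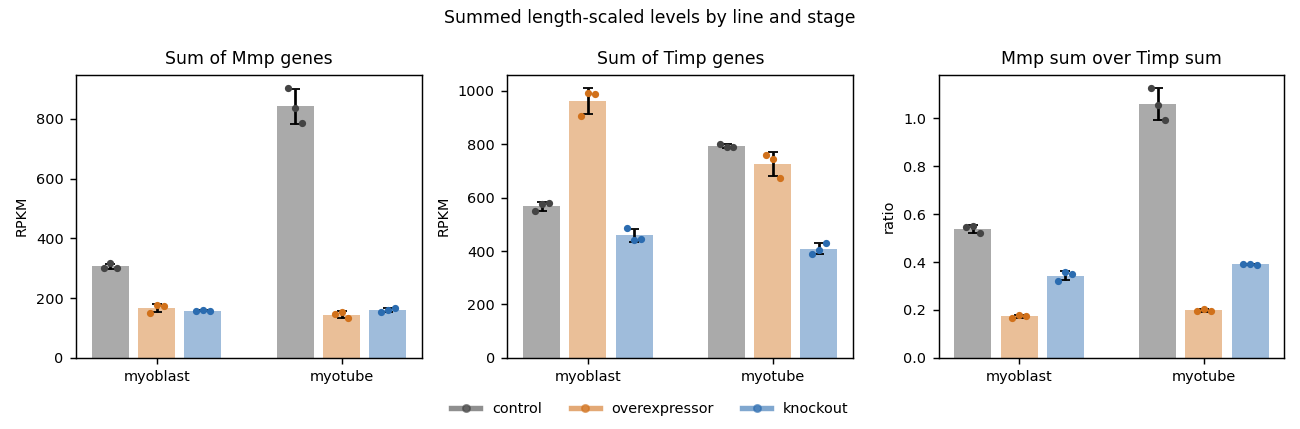
Summed RPKM of the Mmp genes (left) and the Timp genes (middle) and their ratio (right) in myoblasts and day 3 myotubes of the 3 lines; bars are the mean, error bars the SD of 3 libraries, and points the libraries, with every axis starting at 0. The ratio is 0.994 to 1.13 in control myotubes and at most 0.393 in any library of the clones.

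Of the Adamts genes that trim procollagen propeptides, Adamts2 and Adamts14 moved in opposite directions in the myotubes of the clones. Adamts2 (chromosome 11, 50602084 to 50807573, plus strand) held 60.2, 62.4 and 57.6 CPM in control myoblasts and 366, 325 and 315 in control myotubes. The overexpressor held 5.63, 4.59 and 6.45 as myoblasts and 42.3, 50.01 and 34.5 as myotubes. The knockout held 90.9, 95.4 and 93.6 as myoblasts and 66.8, 72.2 and 61.4 as myotubes. Overexpressor myoblasts were the lowest group, knockout myoblasts lay above control, and control myotubes were the highest group by a wide margin. Its log2 fold change against control was -3.44 ± 0.13, adjusted p = 5.01e-13 in overexpressor myoblasts and 0.64 ± 0.11, adjusted p = 0.000127 in knockout myoblasts. In myotubes it was -2.99 ± 0.12, adjusted p = 5.83e-13 and -2.33 ± 0.12, adjusted p = 9.52e-12. It rose with differentiation in the control (2.48) and the overexpressor (2.93) and fell in the knockout (-0.48), each past the threshold.

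Adamts14 (chromosome 10, 61197112 to 61273438, minus strand) held 21.8, 22.7 and 22.5 CPM in control myoblasts and 85.9, 83.7 and 82.7 in control myotubes. The overexpressor held 38.1, 37.8 and 41.4 as myoblasts and 165, 163 and 149 as myotubes. The knockout held 27.7, 32.3 and 30.2 as myoblasts and 194, 195 and 225 as myotubes. Both clones lay above control without overlap, the overexpressor higher as myoblasts and the knockout higher as myotubes. Against control the log2 fold change was 0.81 ± 0.07, adjusted p = 4.16e-08 and 0.43 ± 0.07, adjusted p = 5.97e-05 in myoblasts, and 0.92 ± 0.07, adjusted p = 2.53e-09 and 1.28 ± 0.07, adjusted p = 2.42e-11 in myotubes. Adamts3, of the same group, was at 1.27, 0.981 and 1.20 CPM in control myoblasts. It was at or under 3 counts in every overexpressor library and all knockout myotubes, which makes it at least 17.8-fold lower in overexpressor than in control myoblasts.

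The proteases that cut versican and aggrecan showed 4 different patterns. Adamts1 and Adamts5 lie side by side on chromosome 16, between 85793827 and 85901828. Adamts1 held 45.1, 43.5 and 47.1 CPM in control, 21.1, 21.3 and 18.4 in overexpressor and 78.7, 85.4 and 86.2 in knockout myoblasts. Its myotube values were 65.3, 61.9 and 65.1 CPM for control, 77.0, 89.8 and 89.3 for the overexpressor and 63.6, 58.8 and 47.6 for the knockout. The 3 lines did not overlap as myoblasts, and as myotubes the overexpressor was highest while knockout and control overlapped. Against control it was lower in overexpressor myoblasts (-1.16 ± 0.10, adjusted p = 1.4e-08) and higher in knockout myoblasts (0.88 ± 0.09, adjusted p = 2.38e-07). With differentiation it rose by 2.07 on the log2 scale in the overexpressor (adjusted p = 1.72e-12) and fell by 0.56 in the knockout (adjusted p = 4.17e-05).

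Adamts5 did not follow its neighbour. Control myotubes held 117, 109.9 and 125 CPM, overexpressor myotubes 68.8, 82.2 and 98.4 and knockout myotubes 60.9, 45.3 and 39.9. The groups did not overlap, and within the overexpressor and the knockout the libraries spread widely. Its log2 fold change was -1.27 ± 0.16, adjusted p = 2.3e-06 in knockout myotubes. In overexpressor myotubes it was -0.50 ± 0.15, adjusted p = 0.0108, but -0.37 with adjusted p = 0.0572 without library A of the overexpressor and -0.35 with adjusted p = 0.0782 when scaled by library totals. It rose with differentiation in the control (1.21) and the overexpressor (1.16), and in the knockout the difference was -0.32 (adjusted p = 0.0785).

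Adamts4, an aggrecanase, rose with differentiation in all 3 lines. Its myoblast means were 47.8 ± 1.69 CPM (SD, n = 3) for control, 48.7 ± 6.11 for the overexpressor and 36.0 ± 1.89 for the knockout. Myotubes held 114, 104 and 98.2 CPM for control, 86.9, 81.1 and 78.7 for the overexpressor and 153, 156 and 159 for the knockout. Knockout myotubes were highest and overexpressor myotubes lowest, with no overlap, at log2 fold changes of 0.56 ± 0.08, adjusted p = 6.64e-06 and -0.36 ± 0.08, adjusted p = 0.000873 against control.

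Adamts15, another versican-cutting protease, and Adamts8 are neighbours on chromosome 9, between 30899155 and 30963838, and both were highest in overexpressor myotubes. Adamts15 held 5.08, 3.39 and 4.19 CPM there, 0.966, 0.641 and 0.776 in control myotubes and 1.42, 0.841 and 1.85 in overexpressor myoblasts. It was at or under 3 counts in every knockout library and every control myoblast library. Overexpressor myotubes therefore exceeded knockout myotubes at least 77.1-fold, and overexpressor myoblasts exceeded control myoblasts at least 22.7-fold. Adamts8 reached 0.401, 0.300 and 0.236 CPM in overexpressor myotubes and 0 counts in all 6 knockout libraries. Control myotubes held 1 to 4 counts of Adamts8 per library, a mean of 0.0609 CPM. The myotube means of both genes were in the order overexpressor, control, knockout. For Adamts8 the step from control to knockout lay near the floor of 3 counts and does not establish that order.

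Adamts7 and Adamts12, which both cut the cartilage oligomeric matrix protein, differed between lines. Adamts7 was at 64.7 ± 1.77 CPM in control myotubes, 98.9 ± 6.35 in overexpressor and 120.3 ± 5.65 in knockout myotubes (SD, n = 3), higher in both clones (0.61 ± 0.07, adjusted p = 6.38e-07 and 0.90 ± 0.07, adjusted p = 3.72e-09). Tbc1d2b, which overlaps Adamts7, averaged 54.1, 15.3 and 21.3 CPM in the same myotubes. Adamts7 fell with differentiation in the control (-0.47) and overexpressor (-0.32) and rose in the knockout (0.35), each past the threshold. Adamts12 was lowest in the overexpressor, with 0.818, 1.27 and 0.901 CPM in myoblasts against 9.14, 9.46 and 8.69 in control and 16.5, 17.6 and 19.0 in the knockout. The 3 lines did not overlap there. In myotubes it held 11.2, 10.0 and 11.1 CPM for control, 3.25, 2.78 and 4.97 for the overexpressor and 13.5, 10.3 and 8.13 for the knockout, so that the overexpressor remained below both. The log2 fold change of the overexpressor against control was -3.19 ± 0.23, adjusted p = 2.7e-09 in myoblasts and -1.56 ± 0.19, adjusted p = 1.9e-06 in myotubes.

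Adamts6, Adamts10 and Adamts17 belong to the microfibril-associated group. Adamts10 was lower in both clones at both stages and fell with differentiation in every line, from 26.0 ± 1.73 CPM in control myoblasts to 9.79 ± 0.859 in overexpressor myotubes (SD, n = 3), with log2 fold changes against control between -0.75 and -0.40. Adamts6 rose with differentiation in the control (1.20 ± 0.18, adjusted p = 2.1e-05) and the overexpressor (1.61 ± 0.18, adjusted p = 7.48e-07). In the knockout it was at 7.29, 8.81 and 8.44 CPM in myoblasts and 9.66, 7.35 and 6.73 in myotubes, and knockout myotubes were lower than control by 1.97 on the log2 scale (adjusted p = 8.83e-08). Adamts17 passed 1 CPM only in knockout myotubes, with 1.60, 1.19 and 1.94 CPM against 0.246, 0.389 and 0.198 in control, a log2 fold change of 2.52 ± 0.53, adjusted p = 0.000431. These 3 genes thus had no direction in common.

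Adamts16, less well characterised and linked to kidney and blood pressure, was likewise low in both clones. Control libraries held 14.7, 16.8 and 13.3 CPM as myoblasts and 60.0, 72.7 and 64.0 as myotubes. The overexpressor held 0.699, 1.08 and 1.27 as myoblasts and 7.20, 4.82 and 6.96 as myotubes. The knockout held 1.20, 2.17 and 1.60 as myoblasts and 12.1, 12.5 and 13.2 as myotubes. No library of a clone reached the control of its stage, yet all 3 lines rose with differentiation, by 2.13, 2.65 and 2.92 on the log2 scale. Its log2 fold change against control in overexpressor and knockout myotubes was -3.38 ± 0.19, adjusted p = 7.94e-11 and -2.38 ± 0.18, adjusted p = 3.63e-09.

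**Figure D5:**
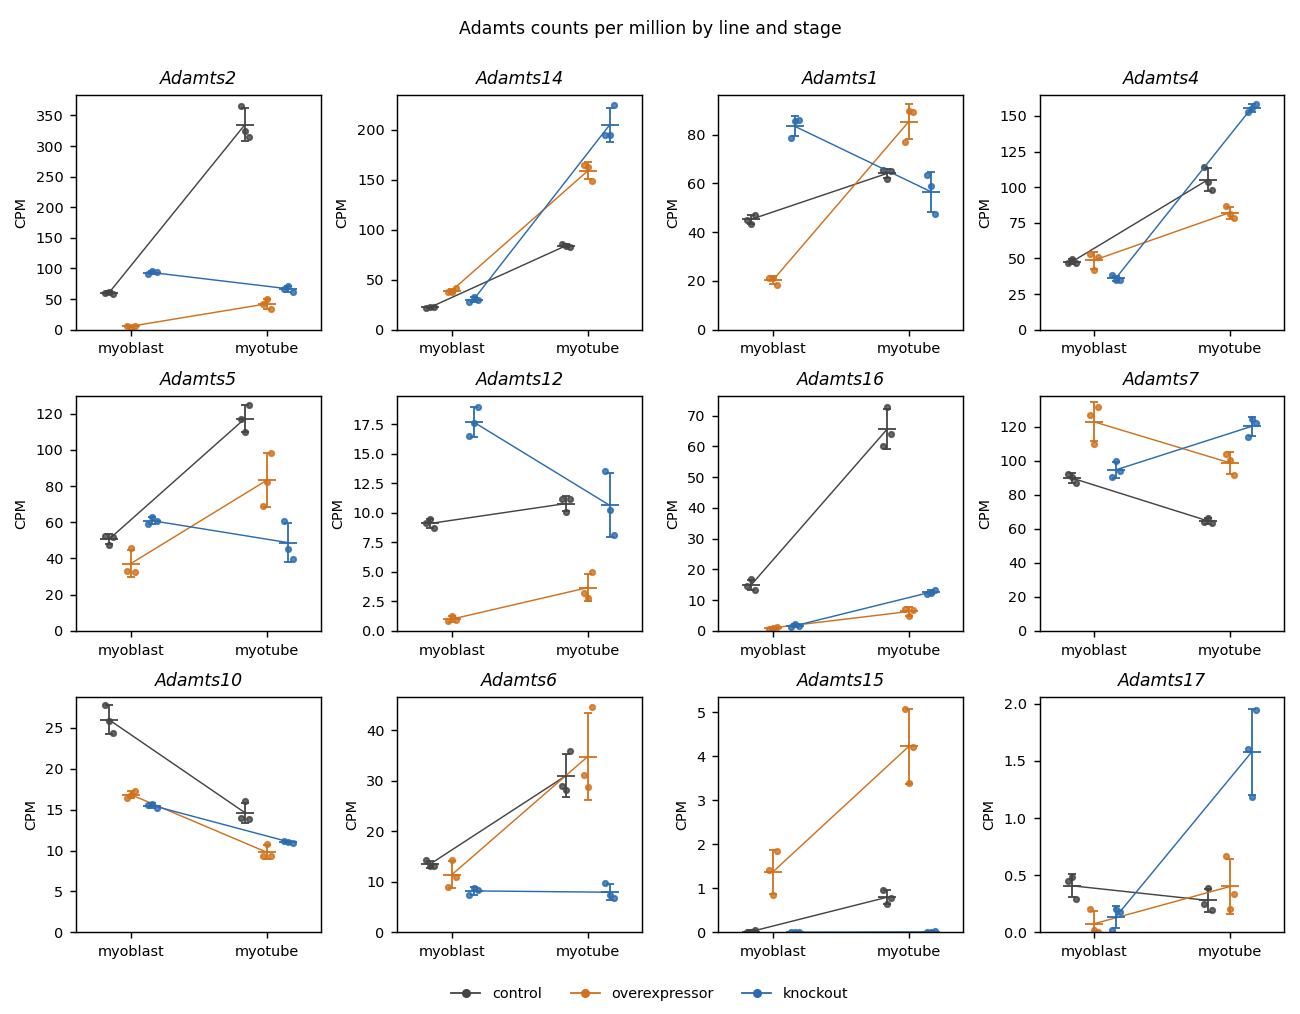
CPM (vertical axis, starting at 0, with a scale of its own in each panel) of 12 Adamts genes in myoblasts and day 3 myotubes of the control, overexpressor and knockout lines; points are libraries, bars the mean ± SD of 3 libraries, and lines join the means of a line. Adamts2 and Adamts16 are highest in control myotubes, Adamts14 is higher in both clones than in control at both stages, and Adamts15 stands between 3.39 and 5.08 CPM in overexpressor myotubes.

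Whether the response to differentiation itself differed was tested as an interaction. It differed between overexpressor and control in 15 of the 28 genes, 5 with a higher and 10 with a lower response, where 39% of all genes were called (16.6% higher and 22.3% lower). It differed between knockout and control in 22, 8 higher and 14 lower, where 50.1% were called (20.2% higher and 29.9% lower). The control libraries are shared by both tests. With library totals in place of TMM factors, the overexpressor split was 7 higher and 8 lower. Timp3 had the lowest response among genes above 1 CPM in both clones, with differences of -6.01 ± 0.19, adjusted p = 2.74e-13 in the overexpressor and -4.24 ± 0.18, adjusted p = 9.42e-12 in the knockout. Mmp2 differed by -2.98 and -1.86, Mmp28 by -3.35 and -2.48, and Mmp11 by -3.0004 and -1.58, all past the threshold. Adamts1, Adamts12 and Adamts2 responded more in the overexpressor (1.57, 1.63 and 0.45) and less in the knockout (-1.06, -0.98 and -2.96). For Adamts2 the overexpressor value was close to the threshold (adjusted p = 0.0422) and lost it without 8 of the 12 libraries taken singly, with adjusted p between 0.0623 and 0.127.

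Genes outside the families were taken from fixed lists. Among 22 activators and inhibitors of these proteases, 14 passed the filter. In myotubes 11 of the 14 differed between overexpressor and control, 2 higher and 9 lower, and all 14 between knockout and control, 3 higher and 11 lower. Over all genes tested, 57.1% and 68% were called in these 2 comparisons. Their median log2 fold change was -1.14 and -1.04, against -0.04 and -0.07 over all genes. Pcsk6, a proprotein convertase, had a mean of 19.1 CPM in control myotubes and 0.121 and 0.0196 in overexpressor and knockout myotubes. Spock2, a testican proteoglycan, had means of 88.1, 2.54 and 0.239 CPM in the same order. Plau, the urokinase plasminogen activator, was higher in both clones as myoblasts, by 1.59 (adjusted p = 3.38e-11) and 0.79 (adjusted p = 2.16e-07).

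Most listed substrates were lower in the myotubes of the clones too. Of 14 listed matrix substrates 11 passed the filter, and all 11 were lower in overexpressor than in control myotubes, with a median log2 fold change of -2.15 (over all genes, 57.1% called, 30.9% lower, and a median of -0.04). In knockout myotubes 7 were lower and 2 higher, with a median of -2.11 (over all genes, 68% called, 37% lower, and a median of -0.07). Bgn, the proteoglycan biglycan, had myotube means of 4821 CPM for control, 601.5 for the overexpressor and 405.8 for the knockout. Col1a1, a chain of type I collagen, whose procollagen Adamts2 trims, averaged 6184 CPM in control and 395.2 CPM in overexpressor myotubes. Vcan, versican, averaged 745.8, 168 and 68.8 CPM in control, overexpressor and knockout myotubes. Col4a1 and Col4a2, basement membrane collagens, were the 2 genes higher in knockout myotubes, by 0.63 (adjusted p = 1.34e-06) and 0.56 (adjusted p = 4.3e-06) on the log2 scale.

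Of 6 ADAMTS-like proteins, which lack the protease domain, all passed the filter and differed in the myotubes of both clones, 2 higher and 4 lower in each, with medians of -1.55 in the overexpressor and -2.05 in the knockout. Beside these and the next counts stand 57.1% of all genes called in overexpressor myotubes (26.2% higher and 30.9% lower) and 68% in knockout myotubes (31% higher and 37% lower), with all-gene medians of -0.04 and -0.07. Adamtsl3 had myotube means of 114.4 CPM for control, 20.7 for the overexpressor and 3.34 for the knockout, and Adamtsl5 averaged 74.4, 128.9 and 166.0 CPM. Among 8 tested ADAM proteases, 6 were lower and none higher in overexpressor myotubes, while 3 were higher and 5 lower in knockout myotubes, with medians of -0.53 and -0.85. Adam12, known for its part in myoblast fusion, averaged 53.7 CPM in control and 8.93 in overexpressor myoblasts. Adam8 averaged 79.6 CPM in overexpressor myoblasts and at most 16.9 CPM in any other group. Of 4 tested genes of procollagen processing, 2 were lower in overexpressor and 4 in knockout myotubes, with none higher and medians of -0.68 and -1.71.

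Of 13 AP-1, ETS and RUNX factors, families whose sites are common in protease promoters, 10 differed in overexpressor myotubes (2 higher and 8 lower) and 12 in knockout myotubes (3 higher and 9 lower), where 57.1% and 68% of all genes were called. Their medians were -0.59 and -0.91, against -0.04 and -0.07 over all genes. Runx2 had myotube means of 72.5 CPM for control, 27.0 for the overexpressor and 13.3 for the knockout. Etv4 averaged 4.92, 22.5 and 18.03 CPM in the same order. Fosl1 averaged 7.01 CPM in control and 1.11 CPM in knockout myotubes, a log2 fold change of -2.65 (adjusted p = 8.92e-09). No test linked these factors to the Mmp, Adamts or Timp genes.

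The other genes were low or had no counts. Of the 28 that passed the filter, Mmp9, Mmp17, Adamts8 and Timp4 stayed under a mean of 1 CPM. Mmp9, gelatinase B, held 0.599, 1.06 and 0.802 CPM in control myoblasts and at most 0.320 CPM in any other library. Mmp17 differed from control in neither clone at either stage by the test, and fell with differentiation in all 3 lines. The 17 genes that did not pass had at most 20 counts in any library, 9 of them never above 3. Mmp8, neutrophil collagenase, had 0 counts in every library, which allows at most 0.0375 to 0.0693 CPM. All 9 genes of the run on chromosome 9 between 7272514 and 7699585 were among the 17: Mmp13, Mmp12, Mmp1b, Mmp3, Mmp10, Mmp8, Mmp27, Mmp20 and Mmp7. These include some of the collagenases and stromelysins, among them the genes whose AP-1 motifs are shown above.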

How the data were processed

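Polyadenylated RNA was sequenced from 18 libraries in 6 groups of 3. The authors deposited raw counts per gene. Per the submitters' processing notes the tools were STAR 2.7.9a, featureCounts, Subread 2.0.3, FastQC 0.11.7 and DESeq2 1.32.0, with build mm10, while strand use and annotation release are not given in the sources used here. Gene IDs were matched to GENCODE M21 symbols, positions and exon lengths (GRCm38), with 260 IDs unmatched. Counts were tested with edgeR 4.0.16 (R 4.3.3; TMM factors, filterByExpr, robust quasi-likelihood fit) in 1 fit of 6 groups with 12 residual degrees of freedom, 11 comparisons and a threshold of 0.05. CPM divides counts by the library size times the TMM factor, and RPKM divides CPM by exon length. A group with at most 3 counts in every library was treated as being at the floor. DESeq2 1.42.0 and other settings were alternatives. On simulated counts for knockout against control myoblasts, the test called 96 of 97 genes changed 2-fold, 103 of 103 changed 4-fold and 11 of 16861 unchanged. A single spread was simulated for all genes, changed genes were not drawn from the lowest counts, and the other groups were alike. These figures thus check the procedure and give no error rate for the real libraries. Text names all 24 genes with a mean of at least 1 CPM in some group, plus listed genes by a fixed rule of level and size. The members and lists were chosen with earlier results of these data known. Replicate letters were not used to pair libraries: 4 of 45 correlations of deviations between libraries of the same letter exceeded 0.1. They lay between -0.358 and 0.264, which does not show whether cultures of a letter were handled together. Replicate pairs differed beyond sampling noise in every group, by a chi-square per degree of freedom of 4.55 to 114.5, the highest for library C of the overexpressor myotubes. Values of some genes outside the families are not reported here.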

Additional observations from a re-analysis of the deposited data

Results flagged for a closer look

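The change with differentiation differed between a clone and control, by the interaction term of edgeR's quasi-likelihood fit with an adjusted p under 0.05, for the following genes. Values are differences of log2 fold changes, clone minus control, and both sets share the control libraries.

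In the overexpressor the difference was positive for Adamts1 by 1.57, Adamts2 by 0.45, Adamts12 by 1.63, Adamts17 by 2.89 and Mmp9 by 5.22. It was negative for Adamts4 by -0.39, Adamts15 by -4.05, Mmp2 by -2.98, Mmp11 by -3.0004, Mmp14 by -0.77, Mmp19 by -0.68, Mmp28 by -3.35, Timp1 by -0.76, Timp2 by -0.33 and Timp3 by -6.01. The values of Adamts15 and Mmp9 rest on groups near the floor of 3 counts.

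In the knockout the difference was positive for Adamts4 by 0.97, Adamts7 by 0.82, Adamts10 by 0.35, Adamts14 by 0.85, Adamts16 by 0.78, Adamts17 by 4.07, Mmp9 by 4.96 and Mmp23 by 1.06. It was negative for Adamts1 by -1.06, Adamts2 by -2.96, Adamts5 by -1.53, Adamts6 by -1.25, Adamts12 by -0.98, Mmp2 by -1.86, Mmp11 by -1.58, Mmp14 by -0.95, Mmp15 by -1.60, Mmp19 by -1.91, Mmp28 by -2.48, Timp1 by -1.35, Timp3 by -4.24 and Timp4 by -7.97. The value of Timp4 rests on groups at the floor and is a fitted value, not a bound. Mmp9, Adamts17 and Timp4 had the widest differences in size beside Timp3, at low levels.

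Some of these calls were lost under other settings or when single libraries were left out. In the overexpressor, Timp2 and Adamts4 lost theirs without library C of the overexpressor myotubes (-0.17, adjusted p = 0.166, and -0.24, adjusted p = 0.132). Neither passed with the size factors of DESeq2 (-0.21, adjusted p = 0.135, and -0.27, adjusted p = 0.0977), with the DESeq2 test (adjusted p = 0.121 and 0.111) or with library totals (-0.14, adjusted p = 0.204, and -0.20, adjusted p = 0.172). Adamts17 lost its call without library A of the overexpressor myotubes or library B or C of the overexpressor myoblasts (adjusted p = 0.0513 to 0.06). In the knockout, Mmp23 lost its call without any 1 of 5 libraries (adjusted p = 0.0504 to 0.0931), Adamts10 without library A of the control myoblasts or library A or C of the control myotubes (adjusted p = 0.0511 to 0.0596), and Adamts16 without library B of the control myoblasts or library A of the knockout myoblasts (adjusted p = 0.0542 and 0.0645).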

How the results depend on the processing

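Over the 256 results for single genes, none of the 210 called ones changed direction under any alternative run, 192 kept the call under all of them and 18 lost it under at least 1; 16 results that were not called gained a call under at least 1. No count of called genes moved by over 1.5 times. Leaving out 1 library at a time gave 20 to 23 called genes for overexpressor against control myoblasts, 20 to 22 for knockout myoblasts, 18 to 20 between the clones, 23 to 25 for each clone's myotubes against control, 20 to 24 between the clones' myotubes, 23 to 24, 23 to 25 and 16 to 19 for differentiation of control, overexpressor and knockout, and 13 to 15 and 20 to 22 for the responses of overexpressor and knockout. With the replicate block, Adamts2 lost the call in the response of the overexpressor (0.44, adjusted p = 0.0563), leaving 14 called genes. Adamts6 lost it between overexpressor and knockout myoblasts (0.47, adjusted p = 0.0547), leaving 19. No other call changed with the block. Whether the letters mark a shared origin is not given in the labels. The Adamts6 call was also lost with library totals (adjusted p = 0.057), without the low-count filter (adjusted p = 0.136) and without each of 5 single libraries (0.28 to 0.53, adjusted p = 0.0568 to 0.239), and the Adamts2 call without the low-count filter (adjusted p = 0.0642), in a fit of only the groups compared (adjusted p = 0.0793) and without each of 8 single libraries. Another scaling moved the median of all genes by 0.108 to 0.145 in overexpressor myotubes and 0.128 in knockout myotubes. The median moved by -0.238 for differentiation of control, and by 0.112 and -0.168 for that of the knockout. With DESeq2 size factors and library totals it moved by 0.111 and 0.186 for the overexpressor response, and by 0.152 and 0.073 for the knockout response. In knockout differentiation 9 genes rose and 9 fell with DESeq2 size factors, and 7 rose and 11 fell with library totals.

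Of the results not called, 16 changed sign. With DESeq2 size factors and the DESeq2 test they were Adamts12 in knockout myotubes against control (0.11 and 0.11), Timp2 there (0.0012 in both), Mmp23 in control differentiation (-0.0077 and -0.0082), Adamts6 in knockout differentiation (0.0763 and 0.0761) and Adamts5 in the overexpressor response (0.0576 and 0.0577). With library totals they were Adamts4 in overexpressor myoblasts (-0.0143), Adamts12 (0.0354), Mmp28 between the clones' myotubes (0.0756), Mmp23 (-0.2227), Timp1 (-0.1019) and Timp2 (-0.1575) in control differentiation, Mmp2 (-0.1184) and Mmp11 (-0.0157) in knockout differentiation, and Adamts5 (0.1334). Without the low-count filter Mmp28 was 0.0022, and with 1 CPM in 3 libraries Adamts12 was 0.0049. Fitting only the groups compared gave Adamts4 -0.0031, Adamts12 0.0395, Mmp23 -0.0485 and Adamts6 0.0175. Leaving out 1 library gave ranges of -0.0463 to 0.1261 (Adamts4), -0.1443 to 0.0744 (Timp3, overexpressor myoblasts), -0.0571 to 0.0681 (Mmp23), -0.1311 to 0.1236 (Adamts5), -0.0222 to 0.2002 (Adamts10, overexpressor response), -1.4365 to 3.0243 (Adamts3, knockout response), -0.2144 to 0.0566 (Adamts6), -0.0408 to 0.8666 (Adamts17, overexpressor myotubes), -0.0336 to 0.2089 (Timp1, overexpressor myotubes), -0.2252 to 0.1416 (Adamts12) and -0.1194 to 0.0973 (Mmp28). The cause was not tested.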
